A study of Homo sapiens with 9 samples.

Results

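Potassium channel genes were taken as the 93 autosomal protein-coding genes whose symbol starts with KCN and a channel or subunit family letter (KCNA to KCNH, KCNIP, KCNJ, KCNK, KCNMA, KCNMB, KCNN, KCNQ and KCNS to KCNV), out of 19126 autosomal protein-coding genes in the RefSeq table for GRCh38.p14. The choice used symbols only and no measured value. The 93 comprised 29 voltage-gated (Kv) pore-forming genes, 10 genes of silent Kv subunits, 8 genes of calcium- and sodium-activated channels, 16 inward rectifiers, 15 tandem-pore leak channels and 15 accessory subunits. The assay was ATAC-seq, which maps open DNA by where the transposase Tn5 can insert adapters, and the cells were SK-N-MC, an established Ewing sarcoma line. Every group carried a doxycycline-inducible short hairpin RNA and received 100 ng/ml doxycycline for 48 h. The cells labelled CHD4 knockdown expressed shCHD4#1 or shCHD4#2, both directed against CHD4, the remodelling ATPase in the NuRD complex. The control cells, labelled wildtype, expressed the non-targeting shScramble. Each group had 3 biological replicates, 9 samples in all, and each sample held 100000 SK-N-MC cells mixed with 100 Drosophila S2 cells.

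Potassium channels let potassium leave or enter the cell down its gradient and thereby set the resting potential and end the action potential. Kv channels open on depolarisation, silent subunits change the gating of Kv channels without forming pores alone, calcium-activated channels couple potassium efflux to calcium entry, inward rectifiers hold the resting potential, and tandem-pore channels carry the background leak. Many of these genes are expressed mainly in neurons or muscle, and in other tissues such genes are often held silent by repressive chromatin. NuRD combines nucleosome remodelling by CHD4 with histone deacetylation and is known as a corepressor at many promoters and enhancers.

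Each group was represented by a single list of open regions, 3 lists in all. A list stands under replicate 1 of its group in the deposit and was read as combining that group's replicates. Replicate spread was therefore not measured, no difference between groups could be tested, and the numbers below describe these lists only. Read depth was unknown. On the autosomes 119696 regions were listed with shCHD4#1 and 81189 with shCHD4#2, against 83564 with shScramble, so the shCHD4#1 list was 1.43 times and the shCHD4#2 list 0.972 times as long as the control list. Of 10 Ewing sarcoma fusion targets taken as markers of the cell line, 9 had a covered gene end in each list, and NPY had none. Over all genes an end was covered in 73.7% with shCHD4#1 and 69.1% with shCHD4#2, against 65.4% with shScramble. The 10 genes thus mark the line only weakly. The CHD4 locus itself held 9 regions with shCHD4#1 and 7 with shCHD4#2, against 6 with shScramble, which says nothing about how far CHD4 was silenced.

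A locus was the gene with 5 kb on both sides. Over the 93 loci, each region counted once, 700 regions were listed with shCHD4#1 and 469 with shCHD4#2, against 395 with shScramble. The shCHD4#1 number was 1.77 times and the shCHD4#2 number 1.19 times the control number, compared with 1.43 and 0.972 times for the whole lists. With all lists cut to the length of the shortest, by rank, the loci held 454 regions with shCHD4#1 and 469 with shCHD4#2, against 382 with shScramble, so shCHD4#1 no longer held the most. The median potassium channel locus held 5 regions with shCHD4#1 and 3 with shCHD4#2, against 2 with shScramble, while the median over all genes was 3 with shCHD4#1 and 2 with shCHD4#2, against 3 with shScramble. With 1 added to both numbers, the median log2 ratio of region number was 0.58 with shCHD4#1 and 0 with shCHD4#2 over the channel genes, and 0.19 with shCHD4#1 and 0 with shCHD4#2 over all genes. The mean log2 ratio was 0.66 with shCHD4#1 and 0.18 with shCHD4#2 over the channel genes, and 0.3 with shCHD4#1 and 0 with shCHD4#2 over all genes. Neighbouring regions of a list can abut, as did 10.6% of the channel regions with shCHD4#1 and 7.89% with shCHD4#2, against 6.84% with shScramble.

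Both hairpin lists held more regions than the shScramble list at 37 of the 93 loci, or 39.8% (95% Wilson interval 30.4 to 49.9, counting error only), against 25.6% of all genes. Both held fewer at 3 loci, KCNC2, KCNIP4 and KCNK6, or 3.23% (1.1 to 9.06), against 13.2% of all genes. Of the other 53 loci, 18 had more regions with shCHD4#1 and an equal number with shCHD4#2 (14.0% of all genes). At 10 there were more with shCHD4#1 and fewer with shCHD4#2 (12.2%), and 12 had equal numbers in all lists (18.7%). The last 13 had other combinations. Of them, 5 had more with shCHD4#2 alone (4.11% of all genes) and 6 had fewer with shCHD4#2 alone (7.94%). Another 2 had fewer with shCHD4#1 and more with shCHD4#2 (1.41%), and 0 had fewer with shCHD4#1 alone (2.91%). Taken singly, shCHD4#1 listed more regions than shScramble at 65 channel loci (background 51.8%) and shCHD4#2 at 44 (background 31.1%). A higher number with both hairpins did not require an added region that they shared. With the lists merged, KCNMB2, KCNB2, KCNJ11, KCNJ12, KCNH4, KCNH6, KCNJ2, KCNN1, KCNN4 and KCNG1 held no region present with both hairpins and absent with shScramble. Likewise KCNK6, counted as having fewer, held no merged region present with shScramble alone. Potassium channel loci had a median length of 50.7 kb, against 34.5 kb over all genes. Of channel genes with loci above 56.5 kb, 21 of 44 had more regions with both hairpins, against a background of 28.7% of all genes in that range. Between 22.8 and 56.5 kb the number was 10 of 23 (background 26.2%). Below 22.8 kb it was 6 of 26 (background 21.9%), where the share stood near the background. Fewer regions with both hairpins were listed for 2 of 44 (background 13.9%), 0 of 23 (background 14.0%) and 1 of 26 (background 11.7%), from the longest loci to the shortest. By control number, 4 of 17 genes with 0 shScramble regions had more (background 20.7%), 10 of 30 with 1 to 2 (background 29.5%), 16 of 30 with 3 to 5 (background 24.5%) and 7 of 16 with 6 or more (background 24.2%). The share thus stood farthest above the background at loci that already held 3 to 5 regions in the control.

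**Figure D1:**
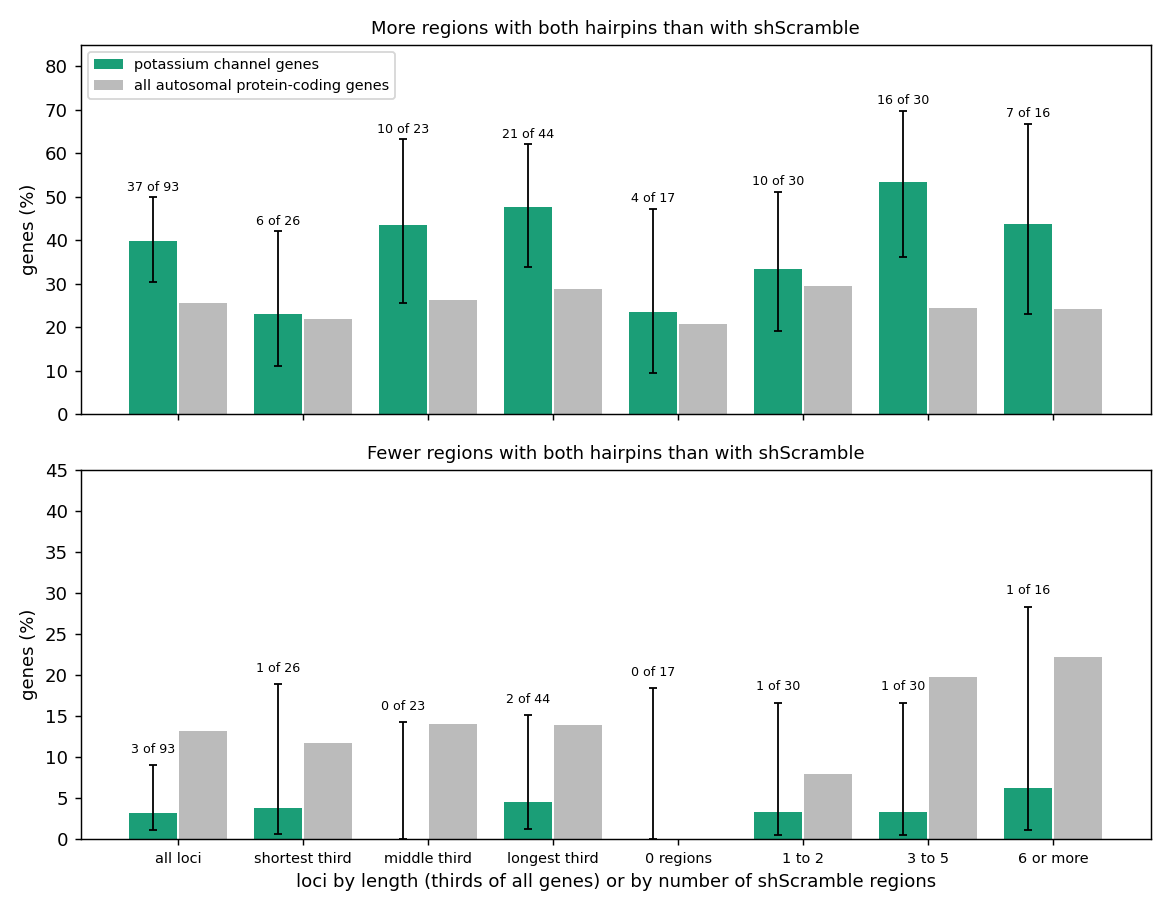
Share of genes with more (top) or fewer (bottom) regions with both hairpins than with shScramble, in percent, for the potassium channel genes (green, with the 95% Wilson interval of counting error and the number of genes) and for all autosomal protein-coding genes (grey). Loci are grouped by length and by their number of shScramble regions; 37 of 93 channel genes had more and 3 of 93 had fewer.

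These counts depended on how many low-ranked regions were used. With every list cut to the length of the shortest, 29 channel genes had more regions with both hairpins (background 18.2%) and 11 had fewer (background 21.8%). With the best 20000 regions of each list, 11 had more (11.8%, background 11.3%) and 13 had fewer (14.0%, background 11.5%), both near the background. Restricting each list to regions whose deposited p was 0.05 or lower (60 at channel loci with shCHD4#1 and 42 with shCHD4#2, against 42 with shScramble) left 6 channel genes that had more regions with both hairpins (background 10.7%) and 9 that had fewer (background 6.09%). Of the 9, 5 had more regions over the full lists.

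**Figure D2:**
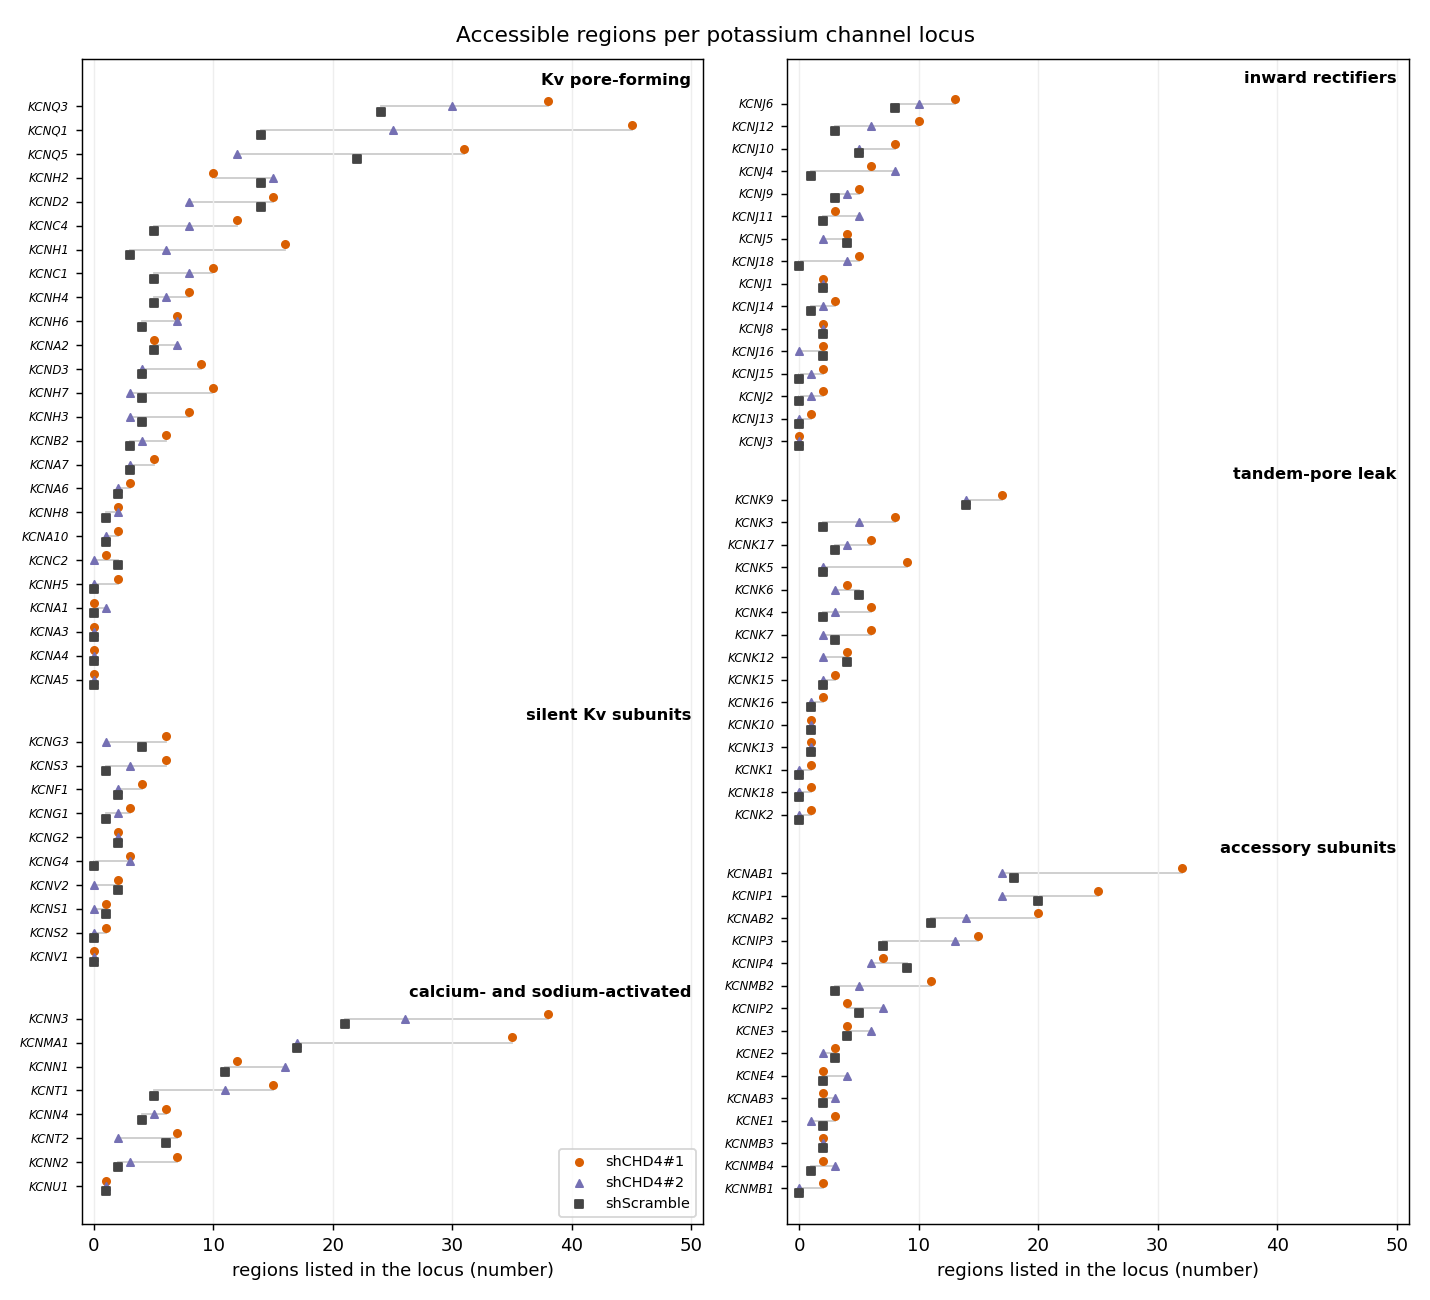
Number of listed regions in the locus of each of 89 of the 93 potassium channel genes, grouped by class, with shCHD4#1 (circles), shCHD4#2 (triangles) and shScramble (squares). KCNQ1 has the widest spread, with 45 regions with shCHD4#1 and 25 with shCHD4#2, against 14 with shScramble, and 5 genes have no region in any list.

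Among the 29 pore-forming Kv genes, both hairpins gave more regions at 13 (25.6% of all genes) and fewer at KCNC2 (13.2% of all genes). Summed over the class, 283 regions were listed with shCHD4#1 and 184 with shCHD4#2, against 154 with shScramble. The KCNQ genes held the most of them. At KCNQ1, which encodes a repolarising channel of heart and epithelia (GRCh38, chromosome 11, 2445008 to 2849105), there were 45 regions with shCHD4#1 and 25 with shCHD4#2, against 14 with shScramble. Both hairpins exceeded the control in number there, and the share of the locus covered was 19.9% with shCHD4#1 and 8.82% with shCHD4#2, against 4.64% with shScramble. KCNQ3, which encodes a subunit of the neuronal M-current that restrains repetitive firing, had 38 regions with shCHD4#1 and 30 with shCHD4#2, against 24 with shScramble, the most of any channel locus in the control. The hairpins differed at KCNQ5, another M-current gene, for which 31 regions were listed with shCHD4#1 but 12 with shCHD4#2, against 22 with shScramble.

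The KCNC genes encode channels of fast-firing neurons. KCNC1 had 10 regions with shCHD4#1 and 8 with shCHD4#2, against 5 with shScramble, and KCNC4 had 12 with shCHD4#1 and 8 with shCHD4#2, against 5 with shScramble. KCNC2 differed, and had 1 with shCHD4#1 and 0 with shCHD4#2, against 2 with shScramble. KCNC4 too had fewer when only a deposited p of 0.05 or lower was kept, with 0 with each hairpin, against 1 with shScramble. KCNB2, a delayed rectifier of neurons, had 6 with shCHD4#1 and 4 with shCHD4#2, against 3 with shScramble. KCNH8 had 2 with each hairpin, against 1 with shScramble, and KCNH4, which had a covered end in every list, had 8 with shCHD4#1 and 6 with shCHD4#2, against 5 with shScramble. KCNH1, the ether-a-go-go channel, had 16 regions with shCHD4#1 and 6 with shCHD4#2, against 3 with shScramble. KCNH2, which encodes the cardiac hERG channel, went with the hairpins in opposite directions, with 10 with shCHD4#1 and 15 with shCHD4#2, against 14 with shScramble, although its covered share of the locus was 47.6% with shCHD4#1 and 53.0% with shCHD4#2, against 34.7% with shScramble. None of the 8 KCNA genes, the Shaker-type channels, had more regions with both hairpins, against 25.6% of all genes, a share that 8 genes can hardly resolve. KCNA3, KCNA4 and KCNA5 had no region in any list, and KCNA2 had 5 with shCHD4#1 and 7 with shCHD4#2, against 5 with shScramble. The A-type channel genes KCND2 (15 with shCHD4#1 and 8 with shCHD4#2, against 14 with shScramble) and KCND3 (9 with shCHD4#1 and 4 with shCHD4#2, against 4 with shScramble) did not exceed the control with both hairpins either.

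In the calcium- and sodium-activated class, 5 of 8 genes had more regions under both hairpins (25.6% of all genes, and 28.7% of those with loci above 56.5 kb) and 0 fewer (13.2% of all genes). The median locus of the class was 172 kb long. The class held 121 regions with shCHD4#1 and 81 with shCHD4#2, against 67 with shScramble. All 4 KCNN genes were among the 5. KCNN3, a small-conductance channel of the neuronal afterhyperpolarisation (chromosome 1, 154697455 to 154870281), had 38 regions with shCHD4#1 and 26 with shCHD4#2, against 21 with shScramble. Its covered share was 40.6% with shCHD4#1 and 21.7% with shCHD4#2, against 19.8% with shScramble, and the order was the same among regions with a deposited p of 0.05 or lower, with 6 with shCHD4#1 and 4 with shCHD4#2, against 1 with shScramble. KCNN1, of the same small-conductance family, had 12 with shCHD4#1 and 16 with shCHD4#2, against 11 with shScramble. The order reversed for KCNN1 at a deposited p of 0.05 or lower, with 1 with each hairpin, against 2 with shScramble. The covered share of KCNN1 was 34.7% with shCHD4#1 and 24.6% in each of the other lists. KCNT1, the sodium-activated channel gene (chromosome 9, 135702185 to 135795502), had 15 with shCHD4#1 and 11 with shCHD4#2, against 5 with shScramble. KCNMA1, the pore of the large-conductance BK channel, had 35 regions with shCHD4#1 and 17 in each of the other lists, so the hairpins differed there.

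Inward rectifiers had more regions with both hairpins at 9 of 16 loci (25.6% of all genes) and fewer at none (13.2% of all genes), and in all 68 regions with shCHD4#1 and 52 with shCHD4#2, against 33 with shScramble. KCNJ4, a rectifier of brain and heart, had 6 regions with shCHD4#1 and 8 with shCHD4#2, against 1 with shScramble. KCNJ18, a skeletal muscle rectifier, had 5 with shCHD4#1 and 4 with shCHD4#2, against 0 with shScramble, and KCNJ12 had 10 with shCHD4#1 and 6 with shCHD4#2, against 3 with shScramble. The sequences of KCNJ12 and KCNJ18 are nearly identical, which makes the placing of reads between them, and so the values of both, uncertain. KCNJ6, a G-protein-gated rectifier of neurons, had 13 with shCHD4#1 and 10 with shCHD4#2, against 8 with shScramble. The order reversed for KCNJ6 at a deposited p of 0.05 or lower, with 1 with each hairpin, against 2 with shScramble. The covered share of KCNJ6 was 9.63% with shCHD4#1 and 2.47% with shCHD4#2, against 3.8% with shScramble. KCNJ2, the classic rectifier of muscle, had 2 with shCHD4#1 and 1 with shCHD4#2, against 0 with shScramble. KCNJ8 had 2 in every list, and KCNJ10, the rectifier of glia, had 8 with shCHD4#1 and 5 with shCHD4#2, against 5 with shScramble. KCNJ3 had no region in any list.

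For the other classes the same shares of all genes, 25.6% with more and 13.2% with fewer, apply. Both hairpins gave more regions at 3 of 15 tandem-pore genes and fewer at KCNK6, with 4 with shCHD4#1 and 3 with shCHD4#2, against 5 with shScramble. KCNK3, the acid-sensitive channel TASK-1 of the lung and carotid body (chromosome 2, 26692722 to 26733420), had 8 regions with shCHD4#1 and 5 with shCHD4#2, against 2 with shScramble. KCNK4 had 6 with shCHD4#1 and 3 with shCHD4#2, against 2 with shScramble, with a region at its end that also lay within 1 kb of ends of CATSPERZ and ESRRA. KCNK9, TASK-3, had 17 with shCHD4#1 and 14 with shCHD4#2, against 14 with shScramble, and with a deposited p of 0.05 or lower 4 with shCHD4#1 and 3 with shCHD4#2, against 0 with shScramble. KCNK5, an alkaline-activated channel, had 9 regions with shCHD4#1 and 2 in each of the other lists, and KCNK12 had 4 with shCHD4#1 and 2 with shCHD4#2, against 4 with shScramble. Both gave more at 4 of 15 accessory genes and fewer at KCNIP4, with 7 with shCHD4#1 and 6 with shCHD4#2, against 9 with shScramble. KCNIP3, a calcium-binding Kv subunit that is also known as the transcriptional repressor DREAM, had 15 with shCHD4#1 and 13 with shCHD4#2, against 7 with shScramble. KCNAB2, a Kv beta subunit with the best-ranked control region of all channel loci, had 20 with shCHD4#1 and 14 with shCHD4#2, against 11 with shScramble. Its relative KCNAB1 had 32 with shCHD4#1 and 17 with shCHD4#2, against 18 with shScramble, and KCNIP1 had 25 with shCHD4#1 and 17 with shCHD4#2, against 20 with shScramble. KCNIP2 had 4 with shCHD4#1 and 7 with shCHD4#2, against 5 with shScramble. Of the 10 silent Kv subunit genes, 3 had more with both hairpins and 0 fewer. They had few regions, with medians of 2.5 with shCHD4#1 and 1.5 with shCHD4#2, against 1 with shScramble. KCNG4 had 3 regions with each hairpin, against 0 with shScramble, KCNS3 had 6 with shCHD4#1 and 3 with shCHD4#2, against 1 with shScramble, and KCNG1 had 3 with shCHD4#1 and 2 with shCHD4#2, against 1 with shScramble. KCNS1 had 1 with shCHD4#1 and 0 with shCHD4#2, against 1 with shScramble, and KCNV1 had no region in any list.

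**Figure D3:**
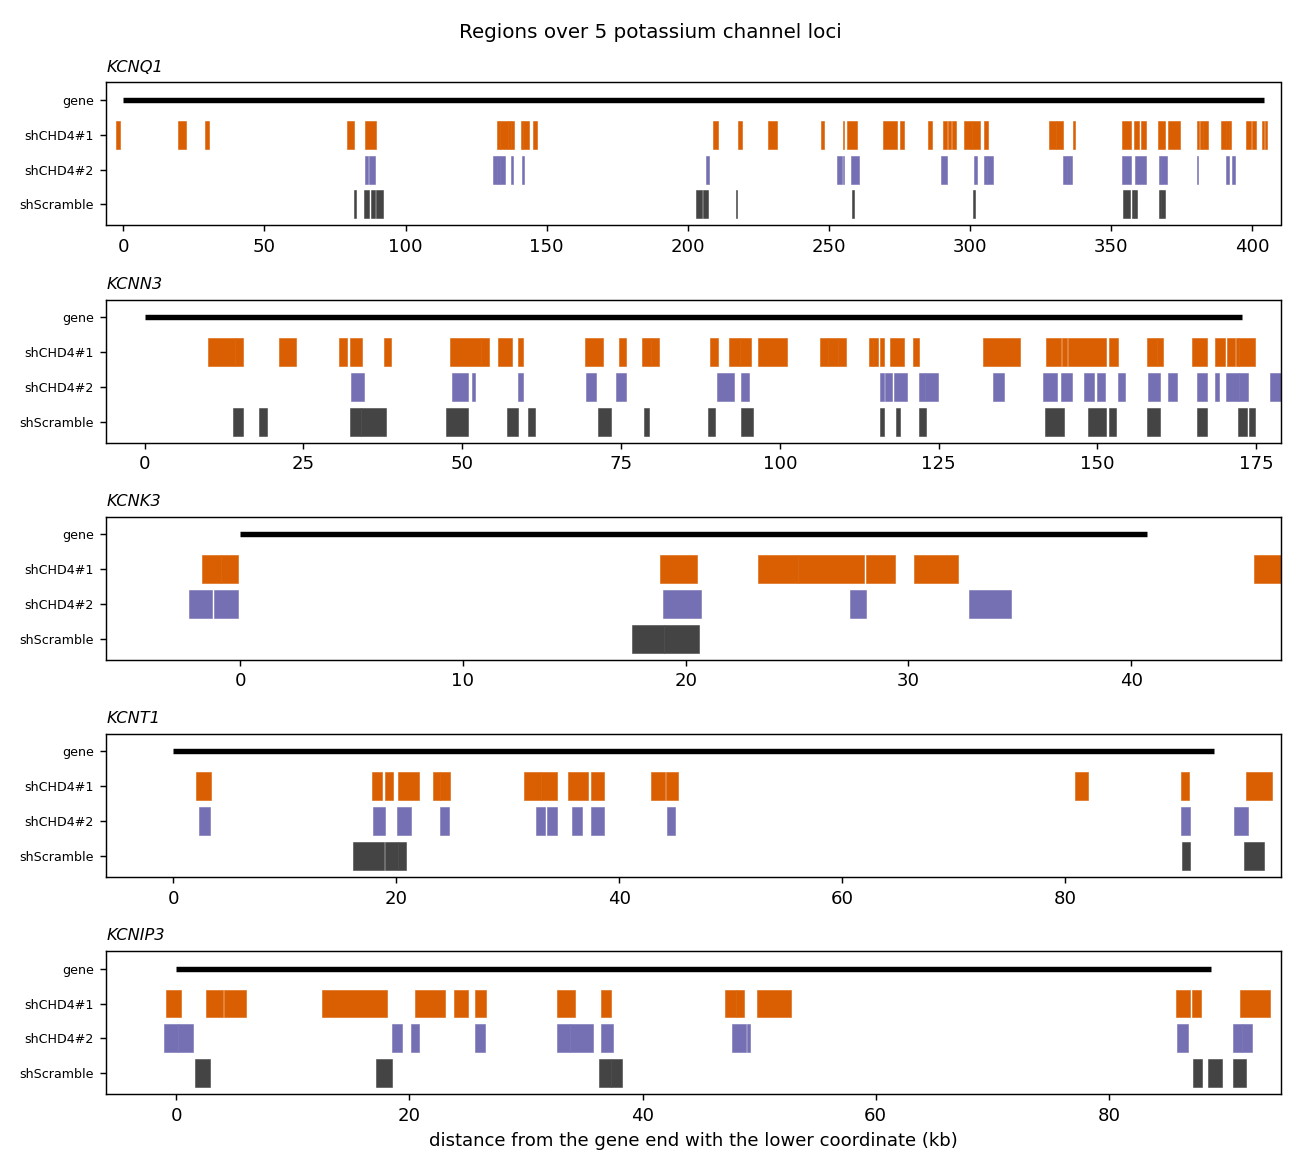
Listed regions over 5 potassium channel loci by distance from the gene end with the lower coordinate (kb), with shCHD4#1 (upper boxes), shCHD4#2 (middle) and shScramble (lower), under a bar for the gene. At KCNQ1 the additional hairpin regions are spread along the gene (45 regions with shCHD4#1 and 25 with shCHD4#2, against 14 with shScramble).

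A gene end counted as covered when a region lay within 1 kb of it, and either end was used because the strand was known for 69 of the 93 genes. Ends of potassium channel genes were covered less often than those of all genes in every list: 58 of 93 genes (62.4%) with shCHD4#1 and 49 (52.7%) with shCHD4#2, against 38 (40.9%) with shScramble, where all genes had 73.7% with shCHD4#1 and 69.1% with shCHD4#2, against 65.4% with shScramble. In 33 genes an end was covered in all lists and in 31 in none. Both hairpins covered an end that shScramble left uncovered, called a gained end, in 13 genes, or 14.0% (Wilson 8.35 to 22.5), against 6.72% of all genes. The reverse held for KCNS1, a silent subunit, against a background of 1.44%. Channel genes had more uncovered ends in the control, and the shares lay closer once only those were counted. Among genes with no covered end in the control, 13 of 55 channel genes gained cover with both hairpins, or 23.6% (14.4 to 36.3), and the background was 19.4%. Among genes with a covered end in the control, 1 of 38 channel genes lost it with both (background 2.21%). By locus length, an end was gained in 8 of 44 channel genes above 56.5 kb (background 7.45%), 2 of 23 between 22.8 and 56.5 kb (background 7.01%) and 3 of 26 below (background 5.69%). Over the same ranges an end was lost in 0 (background 1.8%), 0 (background 1.3%) and 1 (background 1.22%). Among the 13 were KCNB2, KCNC4 and KCNH8 of the Kv genes, KCNJ2, KCNJ6, KCNJ8 and KCNJ18 of the rectifiers, and KCNK3 and KCNK12 of the leak channels. At KCNJ2 and KCNB2 the hairpins covered the end with different regions that did not overlap. At KCNC4 the start lay in a merged region present in all lists (chromosome 1, 110207001 to 110210990), of which the shScramble part stayed more than 1 kb from the start. That region ranked at best at 31.0% with shCHD4#1 and 16.4% with shCHD4#2, against 9.63% with shScramble. Within it, the gain rests on where the regions stop. A second merged region, absent with shScramble, began 677 bp inside KCNC4 (chromosome 1, 110210991 to 110211700). It ranked lower, at 75.8% with shCHD4#1 and 36.1% with shCHD4#2. No region at the 13 ends lay within 1 kb of an end of another protein-coding gene. None of the 13 was so called with the regions of deposited p 0.05 or lower, where 3 other channel genes gained an end (KCNH2, KCNJ10 and KCNN3, background 5.85%) and 4 lost one (KCNA2, KCNE2, KCNH4 and KCNIP2, background 2.03%). With the best 20000 regions of each list, 7 channel genes gained an end (7.53%, background 6.29%) and 7 lost one (7.53%, background 3.05%).

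**Figure D4:**
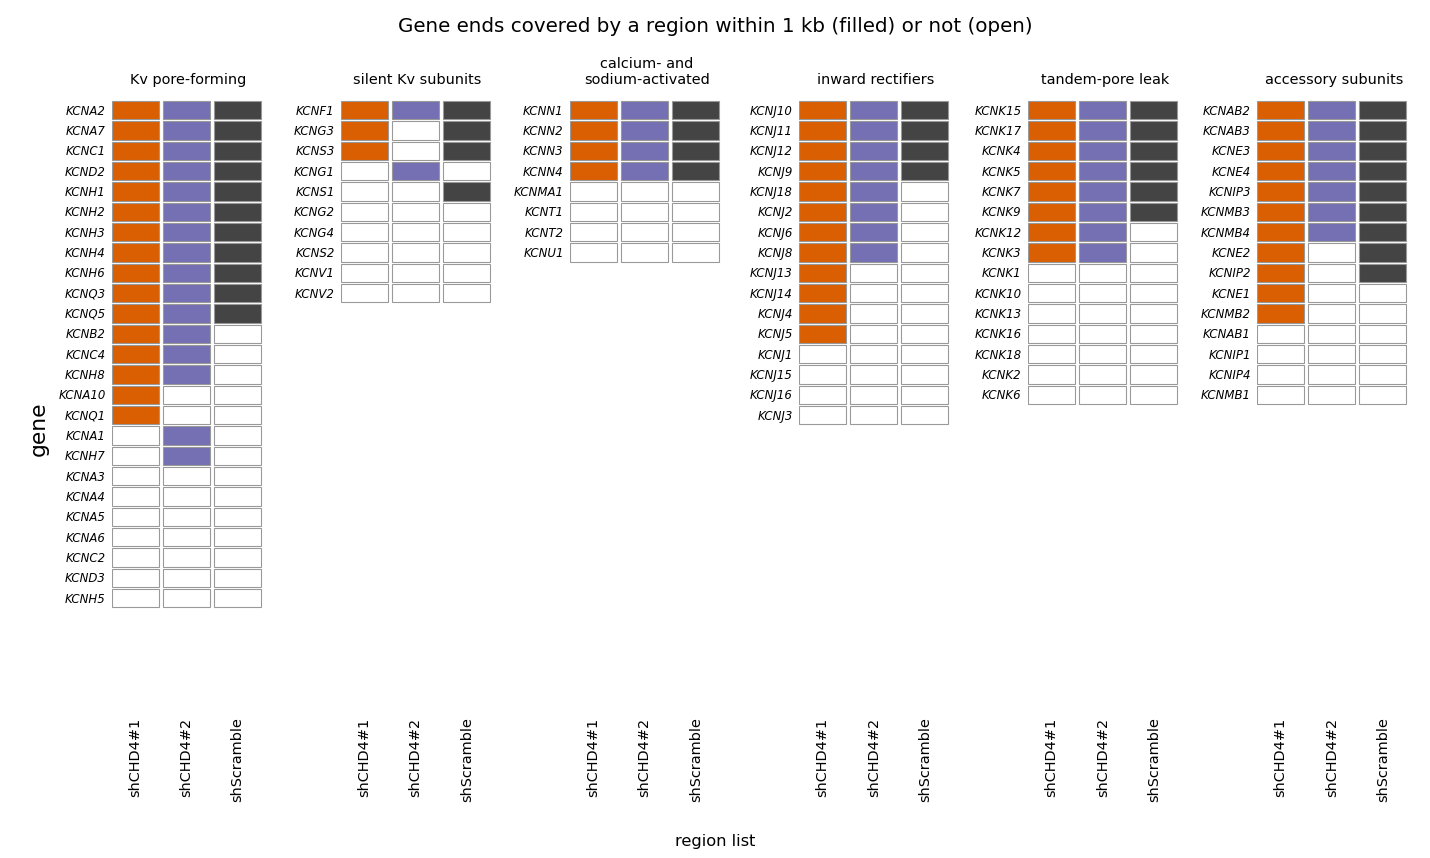
Cover of gene ends in 89 of the 93 potassium channel genes by class: a filled cell marks a gene with a region within 1 kb of either end in that list, an open cell a gene without. In 9 of the genes shown the cells of shCHD4#1 and shCHD4#2 are filled and that of shScramble is open, and KCNS1 alone shows the reverse.

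Where the strand was known, the start itself could be separated. A region lay within 1 kb of the start of 35 of 69 channel genes with shCHD4#1 and 25 with shCHD4#2, against 20 with shScramble. Over all genes with a known strand the share was 68.8% with shCHD4#1 and 65.7% with shCHD4#2, against 60.5% with shScramble. The start was gained with both hairpins in 11 genes, against a background of 7.25%, and lost with both in 0 (background 1.13%). Of genes whose start was uncovered in the control, 11 of 49 channel genes gained it (22.4%, background 18.4%). At KCNK5 the gained region (chromosome 6, 39229381 to 39230390) overlapped the start and ranked at the 22.9% point of the shCHD4#1 list and the 42.2% point of the shCHD4#2 list, counted from the best. At KCNJ8, the pore of a vascular ATP-sensitive channel, the gained region (chromosome 12, 21774381 to 21775500) also overlapped the gene. At KCNH2 the gained region beside the start ranked at 21.2% with shCHD4#1 and 10.7% with shCHD4#2 (chromosome 7, 150978331 to 150979780).

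The promoter sequences below, from RefSeq (GRCh38.p14), are shown for their CpG content at starts with different cover. Each is the stretch of 250 bases before a start, 5′ to 3′, and capitals mark CpG dinucleotides. KCNC4, KCNK3, KCNJ6 and KCNK5 have windows that both hairpins covered and shScramble did not, KCNAB2 has a window covered in all lists, where the region at its end also lay at an end of NPHP4, and KCNA10 has a window covered in none. The KCNC4 window lay in a merged region to which shScramble also contributed, farther from the start.
KCNC4 (chr1:110210064-110210313, plus strand): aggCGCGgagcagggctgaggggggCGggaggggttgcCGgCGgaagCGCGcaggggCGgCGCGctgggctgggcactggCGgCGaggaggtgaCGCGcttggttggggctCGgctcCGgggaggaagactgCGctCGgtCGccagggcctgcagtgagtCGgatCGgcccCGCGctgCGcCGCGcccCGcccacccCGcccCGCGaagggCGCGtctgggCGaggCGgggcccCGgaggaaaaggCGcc
KCNK3 (chr2:26692472-26692721, plus strand): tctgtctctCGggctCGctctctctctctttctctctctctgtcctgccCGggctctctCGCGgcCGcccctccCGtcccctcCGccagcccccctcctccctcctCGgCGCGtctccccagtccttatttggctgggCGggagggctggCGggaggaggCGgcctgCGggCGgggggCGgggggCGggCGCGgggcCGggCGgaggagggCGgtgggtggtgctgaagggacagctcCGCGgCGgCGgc
KCNJ6 (chr21:37916458-37916707, minus strand): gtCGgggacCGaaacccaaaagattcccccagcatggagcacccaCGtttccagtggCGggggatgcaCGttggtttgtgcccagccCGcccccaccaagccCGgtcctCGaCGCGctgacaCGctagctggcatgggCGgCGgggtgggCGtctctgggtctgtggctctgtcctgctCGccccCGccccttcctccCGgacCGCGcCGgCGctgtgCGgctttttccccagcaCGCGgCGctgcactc
KCNK5 (chr6:39229476-39229725, minus strand): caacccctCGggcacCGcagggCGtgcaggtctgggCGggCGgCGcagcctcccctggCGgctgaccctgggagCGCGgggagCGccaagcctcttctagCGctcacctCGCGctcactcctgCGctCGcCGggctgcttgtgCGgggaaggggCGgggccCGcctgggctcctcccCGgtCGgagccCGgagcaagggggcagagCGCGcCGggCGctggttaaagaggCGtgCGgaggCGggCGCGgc
KCNAB2 (chr1:5992426-5992675, plus strand): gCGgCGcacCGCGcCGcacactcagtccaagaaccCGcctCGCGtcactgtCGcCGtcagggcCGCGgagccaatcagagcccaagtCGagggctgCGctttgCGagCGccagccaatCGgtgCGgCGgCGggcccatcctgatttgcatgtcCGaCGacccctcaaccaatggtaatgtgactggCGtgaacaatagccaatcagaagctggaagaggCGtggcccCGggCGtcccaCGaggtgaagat
KCNA10 (chr1:110519176-110519425, minus strand): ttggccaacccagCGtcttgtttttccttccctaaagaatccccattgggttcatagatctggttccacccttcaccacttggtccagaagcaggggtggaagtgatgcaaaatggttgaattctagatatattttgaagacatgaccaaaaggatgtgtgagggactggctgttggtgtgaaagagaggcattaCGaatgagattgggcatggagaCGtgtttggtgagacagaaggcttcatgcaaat
The 4 gained stretches hold 36, 27, 25 and 31 CpG, in the order shown, and KCNAB2 holds 27, against 3 in KCNA10. They were picked as examples, and others run the other way. In windows of 300 bases, the gained window of KCNJ18 and a gained inner window of KCNN3 hold 8 and 11 CpG. Starts of KCNMA1, KCND3 and KCNIP4 covered in no list hold 54, 53 and 47. The KCNN3 window lay in a merged region present in all lists, and the outer start of KCNN3 was covered in every list.

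RefSeq promoter windows of 300 bases (250 before to 50 after a start) were matched for 69 channel genes, which had 107 starts. In the median they held 16 CpG and 63.0% C plus G, against 21 CpG and 62.7% over 21156 starts of all genes. Of the channel windows, 11 were gained with both hairpins (10.3%, near the 8.82% of all windows). Another 11 were covered in all lists (10.3%, against 38.8%) and 65 in none (60.7%, against 33.1%). In the median the gained windows held 32 CpG, those covered in all lists 27 and those covered in none 10. Over all genes these medians were 29, 24 and 7, so the order of the medians was the same in all genes. In the windows of the channel genes, 33 (30.8%) were covered with shCHD4#1 and 30 (28.0%) with shCHD4#2, against 18 (16.8%) with shScramble, while over all genes the share was 56.0% with each hairpin, against 49.2% with shScramble. The letters GGAAGGAA, a short form of the repeat bound by the Ewing fusion, occurred on either strand in 6 channel windows (5.61%, against 3.66% of all windows). All 6 were covered in no list, as were 60.7% of all channel windows. Over all genes 283 of the 774 windows with these letters were covered in none, against 33.1% of all windows. The letters TATAAA, searched on both strands and unable to overlap a GGAAGGAA match, occurred in 9 (8.41%, against 9.51%). They were in none of the 11 gained channel windows, against 4.55% of the gained windows of all genes, a share that 11 windows can hardly resolve.

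Merging the 3 lists gave 729 regions at the channel loci. Those present with both hairpins and absent with shScramble made up 98 of them, or 13.4% (Wilson 11.2 to 16.1), against 10.1% of 127275 merged regions on all autosomes. Those present with shScramble alone made up 54, or 7.41% (5.72 to 9.54), against 10.5%. Regions in all lists were fewer, 27.8% (24.7 to 31.2) against 33.2%, and regions with shCHD4#1 alone numbered 239, or 32.8% against 28.9%. Regions of the kinds placed lay mostly inside the gene and away from its ends: 74 of the 98 gained (75.5%), 46 of the 54 lost (85.2%) and 130 of the 203 present in all lists (64.0%). The other kinds, among them regions with shCHD4#1 alone, were not placed, and places were not counted over all genes. Within 1 kb of an end of the channel gene lay 22 gained regions (22.4%), 4 lost regions (7.41%) and 47 regions present in all lists (23.2%).

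**Figure D5:**
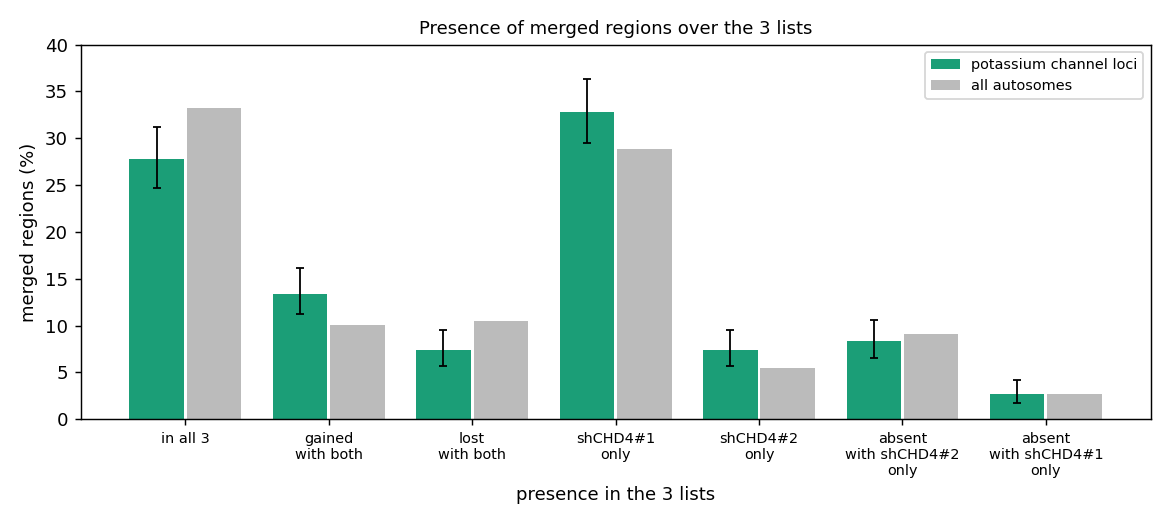
Merged regions by presence in the 3 lists, in percent, at potassium channel loci (green, with the 95% Wilson interval of counting error) and on all autosomes (grey). Regions gained with both hairpins made up 13.4% at channel loci and 10.1% on all autosomes.

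The best-ranked gained region at a channel locus (chromosome 10, 101834541 to 101836280), judged by the worse of its ranks, lay inside KCNIP2, a subunit of the cardiac transient outward current, and ranked at the 2.51% point of the shCHD4#1 list and the 5.19% point of the shCHD4#2 list. Others lay at the end of KCNQ3 (chromosome 8, 132480881 to 132482951, 13.8% with shCHD4#1 and 15.4% with shCHD4#2), inside KCNT1 (chromosome 9, 135704191 to 135705530, 19.1% with shCHD4#1 and 15.0% with shCHD4#2) and inside KCNIP3 (chromosome 2, 95323011 to 95323930, 14.9% with shCHD4#1 and 19.7% with shCHD4#2). KCNQ1 alone held 10 gained and 4 lost regions. A gained region of 360 bp there (chromosome 11, 2700021 to 2700380, 17.1% with shCHD4#1 and 14.6% with shCHD4#2), singled out after its values were seen, lay 27 bp outside the annotated span of KCNQ1OT1 (2608328 to 2699994), the long noncoding RNA of the imprinted domain inside KCNQ1. The best-ranked lost region at a channel locus also lay inside KCNQ1 (chromosome 11, 2802311 to 2803010), at the 17.3% point of the shScramble list. The next lay near the far end of KCNK5 (chromosome 6, 39189881 to 39190580, 19.7%). That end itself stayed covered with shCHD4#1, by a region listed with shCHD4#1 alone (39188771 to 39189760). KCNK5 thus lost that region and gained another at its start, but did not lose cover of the far end with both hairpins.

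In bases covered the hairpins lay on opposite sides of the control. Regions covered 1196 kb of the channel loci with shCHD4#1 and 580 kb with shCHD4#2, against 648 kb with shScramble, which is 1.84 times the control with shCHD4#1 and 0.894 times with shCHD4#2. The shCHD4#1 ratio was 1.07 with all lists cut to the length of the shortest and 1.09 with the best 20000 regions of each list. Over all autosomes, without very wide regions, the ratio was 1.41 with shCHD4#1 and 0.731 with shCHD4#2. The median channel region was 1450 bp wide with shCHD4#1 and 1040 bp with shCHD4#2, against 1470 bp with shScramble. More bases were covered with both hairpins at 32 of 93 loci (background 27.8%) and fewer with both at 10 (background 23.2%).

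Related channel families were counted the same way, and the shares of all genes were again 25.6% with more and 13.2% with fewer. Of 25 voltage-gated calcium channel genes, 16 had more regions under both hairpins and 0 had fewer, with a median locus of 129 kb. CACNA1H, a T-type channel, had 16 regions with shCHD4#1 and 12 with shCHD4#2, against 3 with shScramble, and CACNA1C, the cardiac L-type channel, had 26 with shCHD4#1 and 25 with shCHD4#2, against 15 with shScramble. Of 14 voltage-gated sodium channel genes, 3 had more and 2 fewer. SCN8A, of the neuronal axon initial segment, had 8 regions with each hairpin, against 3 with shScramble, and SCN1A, of inhibitory neurons, had 2 with shCHD4#1 and 1 with shCHD4#2, against 5 with shScramble. Of 9 HCN and cyclic nucleotide-gated genes 3 had more and 0 fewer, and of 7 CLCN chloride channel genes 2 had more and 1 fewer. Among 15 partners of potassium channels, 5 had more and 1 fewer. Apart from the calcium channels, the shares with more lay near that of all genes. LRRC26, an auxiliary subunit of BK channels, had 7 with shCHD4#1 and 5 with shCHD4#2, against 1 with shScramble, and DPP6, an auxiliary subunit of A-type channels, had 32 with shCHD4#1 and 14 with shCHD4#2, against 16 with shScramble. Differences among these families, and between them and the potassium channel genes, were not tested.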

How the data were processed

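ATAC-seq libraries of 9 samples were represented by 3 deposited region lists, 1 per group. The submitters' processing notes name deepTools 3.2.1, SAMtools 1.9, BWA, FastQC 0.11.7 and Trimmomatic 0.36, with dm6 and GRCh38 as builds. Peak caller, Tn5 shift and any scaling by the Drosophila spike-in were not given in the sources used here. The deposited name of each list carries ChIP-R, a program that combines replicate lists, so treating a list as its group's combined list is an inference. The deposited lists give each region a score, a second score of no stated unit, and the authors' p-value and q-value, used only to rank or filter within a list. They hold no read counts, so depth and the precision it gives are unknown, and a longer list names more weak regions.

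Regions were counted to a locus or to a 1 kb window at a gene end by an overlap of at least 1 bp (Python 3.11.15, pandas 2.3.3). Overlap counting was tested on simulated regions. No test between groups could be made. The members, gene lists and named-gene rule (gained and lost ends, the largest changes per class, the most and best-ranked regions) were chosen with earlier results of these data known. Alternatives changed the regions used, the flank, the window and the overlap. Individual values of 4 members are not reported here, and those genes are left out of the plots by gene; they remain in the counts.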

Additional observations from a re-analysis of the deposited data

How the results depend on the processing

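No paired analysis was possible because each group had 1 region list with no replicate values, and for the same reason no replicate could be left out. Of 86 recalculations, 56 stayed within 1.5 times the reported value. Some of them, such as leaving out KCNQ1 or KCNJ12 and KCNJ18, could hardly have moved a count. Keeping deposited p values of 0.05 or lower, 6 genes had more and 9 fewer regions with both hairpins (10.7% and 6.09% of all genes). An end was gained in 3 and lost in 4 (5.85% and 2.03%). The loci held 60 (shCHD4#1), 42 (shCHD4#2) and 42 (shScramble) regions, and 13 merged regions were gained and 12 lost with both. With the best 20000 regions of each list these values were 11 and 13 genes (11.3% and 11.5% of all genes), 7 and 7 ends (6.29% and 3.05%), 90 (shCHD4#1), 97 (shCHD4#2) and 82 (shScramble) regions, and 25 and 26 merged regions, and the covered bases with shCHD4#1 were 1.09 times the control. With all lists cut to the shortest, 11 genes had fewer regions (background 21.8%), 3 lost an end (background 2.15%), shCHD4#1 had 454 regions, 82 merged regions were lost with both, and that ratio was 1.07. Here fewer regions enter by construction. Flanks of 50 kb gave 1265 (shCHD4#1), 868 (shCHD4#2) and 779 (shScramble) regions. The number of lost ends was 0 with a window of 500 bp (background 1.62%), 3 with 2 kb (background 1.13%) and 0 at gene starts alone (background 1.13%). The number of gained ends was 15 with 500 bp (background 7.52%), 9 with 2 kb (background 5.7%) and 11 at gene starts alone (background 7.25%). Joining regions within 500 bp, added after seeing the data, gave 34 channel genes with more and 3 with fewer regions. Of all 19126 genes, 3830 had more and 1943 had fewer after joining, against 4894 and 2517 without it. Leaving out KCNQ1, also added after seeing the data, gave 36 and 3 channel genes (25.6% and 13.2% of all genes). The filters on merged regions and covered bases were added then too. Unknown depth limits every count of listed regions.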
